A study of Mus musculus with 18 samples.

Results

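Gene expression was compared between marrow-derived mesenchymal stem cells (MSC) that received an siRNA against Arp4 together with CK666 (siArp4+CK666) and MSC that received a control siRNA (siControl). The comparison used 6 of the 18 libraries of the series, 3 per group, taken by their labels, and covered all genes of the table. MSC are adherent progenitors of the marrow stroma that can become fat or bone cells, and these were primary cells made from the pooled marrow of male C57BL/6J mice with no engineered allele. The age of the mice is not stated by the labels. Both groups were transfected, the control with an siRNA that the sample titles call siRNA control. By the study's methods the libraries of a group came from separate preparations of cells. A further transfected group with the Arp4 siRNA and no drug (siArp4, 3 libraries) was fitted with them, and its values are set beside those of the main comparison. None of the 18 libraries came from transfected control cells given CK666. In a difference from siControl the effects of the knockdown and of the drug therefore cannot be told apart.

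Arp4, the product of the gene Actl6a, is an actin-related protein of the nucleus. It is a subunit of the BAF, INO80 and TIP60 complexes, which slide or exchange nucleosomes or acetylate their histones. CK666 is a small molecule that holds the Arp2/3 complex in its inactive form, and Arp2/3 starts a new actin filament as a branch on the side of an existing one. The balance of monomeric and filamentous actin also reaches transcription, because the coactivator MRTF is held by monomers and acts with the factor SRF on genes of the contractile cytoskeleton.

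The 6 libraries held 18848954 to 21821871 estimated counts, with 12576 to 13234 genes at a count of 10 or more in each. The siControl libraries were uneven. By Euclidean distance on a variance-stabilised scale over the 1000 most variable genes, siControl replicate 2 lay 62.3 and 40.1 from replicates 1 and 3, which lay 34.2 from each other, and the siArp4+CK666 libraries lay 20.8 to 32.1 apart. The unevenness followed transcript length. Among the shortest genes, the first of 4 equal bins of protein-coding genes with a mean of at least 100 by exon length, the median level of siControl replicate 1 was -0.47 on the log2 scale from the siControl median of each gene and that of replicate 2 was 0.37, while among the longest the values were 0.40 and -0.23. The siArp4+CK666 libraries ranged from -0.50 to -0.05 in the shortest bin and from 0.15 to 0.49 in the longest. Genes called lower made up 20.2% of the shortest bin and 6.89% of the longest, against 14.9% and 11.4% once the length trend of each library was removed. Mitochondrial transcripts took 2.65%, 1.3% and 2.37% of the normalized counts in siControl replicates 1 to 3 and 2.86% to 3.36% in siArp4+CK666, so that the groups did not overlap and siControl replicate 2 was the lowest. The part of library quality and preparation in this unevenness and in the results was not tested. List counts that changed without siControl replicate 2, or moved by over 1.5 times and 2 or more genes with the length trend removed, with edgeR or without another library, are given beside the list or near the end, and named genes whose call was lost without siControl replicate 2 or the length trend are given last.

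**Figure D1:**
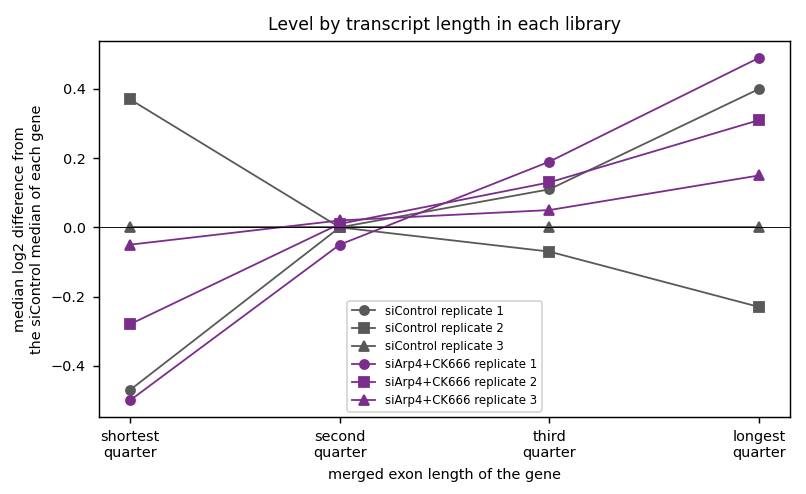
Median log2 difference of each library (y axis) from the siControl median of each gene, for protein-coding genes in 4 bins of merged exon length (x axis), with grey lines for the 3 siControl libraries and purple lines for the 3 siArp4+CK666 libraries. The siControl replicates 1 and 2 slope in opposite directions, from -0.47 to 0.40 and from 0.37 to -0.23, and all 3 siArp4+CK666 libraries slope upward.

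The table held 54347 genes, of which 15415 received an adjusted p and 3150 (20.4%) were called, which means an absolute log2 fold change over 1 with a DESeq2 adjusted p below 0.01. Higher in siArp4+CK666 were 1242 genes (8.06%) and lower were 1908 (12.4%), while the median log2 fold change over all tested genes was -0.05. Medians of gene lists below are over members with an adjusted p, and rises and falls given as single numbers are log2 fold changes. The counts of list members are to be read against 8.06% higher and 12.4% lower over all tested genes. Without siControl replicate 2 the counts were 1143 higher and 1674 lower, and edgeR called 932 and 1468. The falls were deeper than the rises. A log2 fold change under -2 was reached by 756 called genes and one under -4 by 112, against 317 over 2 and 51 over 4. Groups did not overlap in 3057 of the 3150 called genes, beside 43.1% of all tested genes. Separate groups are thus usual among called genes and are stated below as description only. The largest rises and falls were named only where the groups were separate. Genes called higher took 3.42% to 6.24% of the normalized counts in siControl and 12.9% to 15.1% in siArp4+CK666. For genes called lower the shares were 13.9% to 16.8% and 4.61% to 5.33%. Since the genes were called on these same libraries, the direction of both shifts follows from the calls, and only their size is described. Noncoding RNAs were among both, with 102 of 1521 tested long noncoding genes higher and 82 lower. Since these were bulk samples, fewer cells of a type and less RNA per cell cannot be told apart in any of the values below.

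**Figure D2:**
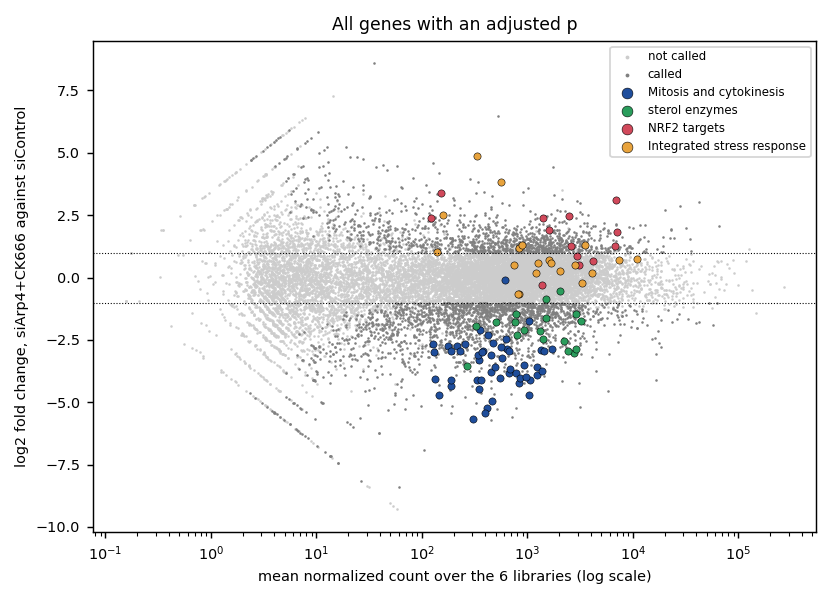
Log2 fold change of siArp4+CK666 against siControl (y axis) by the mean normalized count over the 6 libraries (x axis, log scale) for 15415 genes, with called genes in dark grey and dotted lines at the fold change minimum. The genes of mitosis lie below -1 with 1 exception, the sterol enzymes lie below 0, and the highest coloured points are stress response genes, led by Atf3 at 4.88.

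The target of the siRNA was read first. Actl6a (chromosome 3 from 32706298 to 32726973, plus strand, GRCm38) had normalized counts of 720.1, 1127 and 841 in siControl and 9.52, 22.9 and 17.9 in siArp4+CK666 (log2 fold change -5.73, SE 0.44, DESeq2 adjusted p 6.33e-37). The groups were far apart, and 1.87% of the siControl mean was left. Its neuronal paralogue Actl6b was at 0 in every library, which allows up to 3 counts in each. Among 57 genes of the complexes that hold Arp4, 4 were called higher (all genes, 8.06%) and 3 lower (all genes, 12.4%), Actl6a included, with a median log2 fold change of -0.03. The BAF subunit Smarcd1 had 256, 363 and 295 in siControl and 1146, 1206 and 1256 in siArp4+CK666 (log2 fold change 1.99, SE 0.17, DESeq2 adjusted p 3.51e-29). The BAF subunit Ss18 went the other way, from 1509, 1191 and 1380 to 372, 321 and 274 (log2 fold change -2.08, SE 0.19, DESeq2 adjusted p 2.04e-26). Neither pair of groups overlapped. Actr6, an actin-related protein of the SRCAP complex, rose by 1.12 and Bcl7a by 1.12, and Dpf1, at 7.40 to 51.4 counts, fell by 1.98. None of the 9 INO80 subunits listed and none of the other 18 genes of TIP60 and SRCAP were called. Arid1b rose by 1.12 with DESeq2, a call that 5 of the alternatives lost. Without siControl replicate 2 the complexes held 2 genes called higher and 5 lower.

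Genes of actin itself were lower, those of muscle actins most. Of 6 actin genes 5 were called lower, and Actc1 had a mean of 1.73 counts and was not called. Over the whole list of actins, nucleators and monomer-binding proteins 12 of 49 genes were lower (26.7% of those tested) and 4 higher (8.89%), and 13 and 3 without siControl replicate 2. The smooth muscle actin Actg2 had 1711, 2951 and 2456 in siControl and 505, 534 and 610.2 in siArp4+CK666 (log2 fold change -2.11, SE 0.23, DESeq2 adjusted p 6.88e-19). The skeletal muscle actin Acta1 had 75.4, 181 and 112 in siControl and 9.52, 5.72 and 17.9 in siArp4+CK666 (log2 fold change -3.48, SE 0.50, DESeq2 adjusted p 4.24e-11). In neither gene did the groups overlap, and in siArp4 alone the means were 2402 and 84.7, and both were also called lower against siArp4 (-2.13 and -2.95). The abundant cytoplasmic actins Actb and Actg1 had a log2 fold change of -1.03 each, just past the minimum, with DESeq2 adjusted p values of 0.00725 and 8.59e-05. Both calls were lost without siControl replicate 2, which held the most Actb. In the Arp2/3 complex, the target of CK666, the subunits moved apart. Actr2, its Arp2 subunit, fell from 6332, 3766 and 4789 to 1303, 1110 and 936 (log2 fold change -2.15, SE 0.25, DESeq2 adjusted p 1.74e-16). Actr3, its Arp3 subunit, stood at 10673, 6339 and 9514 in siControl and 18083, 18561 and 16908 in siArp4+CK666 (log2 fold change 1.01, SE 0.21, DESeq2 adjusted p 9.28e-06), a rise at the fold change minimum that 3 alternatives lost. Arpc1a and Arpc1b fell by 1.31 and 1.59, and the other 6 subunits listed were not called. Among formins, which nucleate unbranched filaments, Diaph3 fell by 3.44, Diaph1 by 1.47 and Fmnl2 rose by 1.56. The monomer-binding proteins Cfl1 and Pfn2 rose. Cfl1 (cofilin, which severs filaments) had 8254, 17838 and 12730 in siControl and 42088, 48964 and 61643 in siArp4+CK666 (log2 fold change 1.98, SE 0.29, DESeq2 adjusted p 1.21e-10). Pfn2 had 385, 438 and 487 in siControl and 1579, 1802 and 1740 in siArp4+CK666 (log2 fold change 1.97, SE 0.15, DESeq2 adjusted p 3.63e-37). The groups did not overlap in either, and the other profilin, Pfn1, fell by 1.89. No activator of Arp2/3 among 9 was called.

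Targets of SRF and MRTF were lower in part. Of 20 contractile and focal adhesion genes 8 were called lower (40.0%, all genes 12.4%) and 1 higher (5.0%, all genes 8.06%), with a median of -0.21. In siArp4 alone 5 were called higher than in siControl and 2 lower (median 0.43). Against siArp4 6 were called lower and none higher (median -0.78). The factors Srf, Mrtfa and Mrtfb were not called. Tagln (transgelin, an actin cross-linker) had 1209, 2516 and 1608 in siControl and 187, 187 and 318 in siArp4+CK666 (log2 fold change -2.95, SE 0.32, DESeq2 adjusted p 1.26e-18). Tgfb1i1, a focal adhesion scaffold, had 915, 1397 and 1218 in siControl and 125, 122 and 154 in siArp4+CK666 (log2 fold change -3.14, SE 0.22, DESeq2 adjusted p 6.96e-43). Fhl2, a LIM protein of the same sites, fell from 3689, 6843 and 5583 to 696, 922 and 995 (log2 fold change -2.62, SE 0.26, DESeq2 adjusted p 3.01e-22). All 3 genes were separated between the groups and all 3 were lower than in siArp4 alone as well. The 2 most abundant members not called were Flna and Myh9, with log2 fold changes of 0.41 and 0.48. The exception on the higher side was Filip1l (1.48). Of 29 genes of the YAP/TEAD list 4 were higher (14.8% of those tested, all genes 8.06%) and 4 lower (14.8%, all genes 12.4%). Without siControl replicate 2 the list held 1 higher and 3 lower. Among its 18 target genes, 2 fell and 3 rose. The matricellular genes Ccn1 and Ccn2 were the ones that fell. Ccn2 had 6322, 7172 and 7535 in siControl and 1289, 1429 and 1445 in siArp4+CK666 (log2 fold change -2.34, SE 0.13, DESeq2 adjusted p 8.98e-74), while siArp4 alone stood at 16987, 16847 and 17091, so siArp4+CK666 lay on the other side of siControl from siArp4. Ccn1 had 2957, 3849 and 3328 in siControl and 949.5, 1049 and 1057 in siArp4+CK666 (log2 fold change -1.73, SE 0.15, DESeq2 adjusted p 1.86e-28). The growth arrest gene Gadd45a, by contrast, rose from 3142, 4343 and 4217 to 10164, 12515 and 13331 (log2 fold change 1.62, SE 0.19, DESeq2 adjusted p 2.72e-16).

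The CArG box, the site that SRF binds, was looked for on both strands of promoter windows from RefSeq (GRCm38.p6), which run from 250 bases before to 50 after a start site. It was found in 4 of 15 actin, contractile and adhesion genes that were called lower and had a window (26.7%), against 1.67% of 10798 tested genes and 1.63% of all 32851 windows. The windows of Acta1 (chr8:123894814-123894873, minus strand), Fhl2 (chr1:43196823-43196882, minus strand) and Fhl1 (chrX:56779556-56779615, plus strand) are shown because these genes fell, with the box in capitals.
Acta1: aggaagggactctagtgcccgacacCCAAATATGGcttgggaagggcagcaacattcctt
Fhl2: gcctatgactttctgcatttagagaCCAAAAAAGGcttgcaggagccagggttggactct
Fhl1: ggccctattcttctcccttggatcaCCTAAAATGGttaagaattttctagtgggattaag
Fhl1, another LIM protein, fell by 1.46, a call that edgeR did not make. A match describes the letters only, and binding was not measured. A list of targets can be rich in the site of its factor whether or not its members changed. For this and the elements below, the share among list members not called was not taken, so no share can be tied to the change.

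Genes of cell division fell almost without exception. Of 51 genes of mitosis and cytokinesis 50 were called lower (all genes, 12.4%) and none higher, with a median log2 fold change of -3.50. The count was 50 without siControl replicate 2 as well, and 49 by edgeR. The single gene not called was Wee1, the kinase that delays entry into mitosis, at 716, 545 and 632 in siControl and 594, 589.5 and 572 in siArp4+CK666 (log2 fold change -0.11, SE 0.16, DESeq2 adjusted p 0.626). Aspm, which organises spindle poles, had 1302, 523 and 520.2 in siControl and 29.6, 17.2 and 7.38 in siArp4+CK666 (log2 fold change -5.44, SE 0.50, DESeq2 adjusted p 6.9e-26). Cenpf, a kinetochore protein, had 923, 382 and 1122 in siControl and 25.4, 26.7 and 12.7 in siArp4+CK666 (log2 fold change -5.23, SE 0.57, DESeq2 adjusted p 9.11e-19). Nusap1, which bundles spindle microtubules, had 965, 819 and 923 in siControl and 36.0, 29.6 and 22.1 in siArp4+CK666 (log2 fold change -4.95, SE 0.23, DESeq2 adjusted p 5.13e-98). In each the lowest siControl library stood far above the highest siArp4+CK666 library. The helicase Pif1 showed the deepest fall of all genes that the naming rule took, from 226, 169 and 221 to 3.17, 0 and 2.11 (log2 fold change -6.92, SE 0.71, DESeq2 adjusted p 5.41e-21), and the last values are at or near the limit that a count of 0 allows. Iqgap3, a scaffold of dividing cells, fell by 5.15, and Cit, a kinase of the cytokinetic ring, by 5.67. Against siArp4 alone 42 of the 51 were called lower (all genes, 4.12%), and the median for siArp4 against siControl, which shares the siControl libraries, was -1.71.

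The promoters of many of these genes carry a CHR element, spelled TTTGAA, and a CCAAT box, both known from genes of the late cell cycle. Searched on both strands, TTTGAA stood in 29 of 41 windows of mitosis genes called lower (70.7%), against 14.6% of tested genes and 17.9% of all windows, and CCAAT in 28 of 41 (68.3%), against 43.1% and 37.4%. The windows of Aspm (chr1:139454769-139454794, plus strand), Cenpf (chr1:189688069-189688094, minus strand) and Kif18b (chr11:102925106-102925131, minus strand), a kinesin that fell by 4.69, show where the element, in capitals, lies within 10 bases after the start site.
Aspm: aggcgcgataTTTGAAccgagcaaaa
Cenpf: cggcgggcagTTTGAAtcgctcgtgc
Kif18b: gaccggctagTTTGAAcgcgccgcgc
Windows were chosen as the deepest falls of the list that held the element, so they are examples and not a sample.

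DNA replication genes were also called lower, with a smaller median. Of 41 genes 32 were called lower and none higher (median -1.39), and the lower count was 28 without siControl replicate 2 and 28 by edgeR. The licensing factor Cdc6, which loads the replicative helicase, had 134, 221 and 126 in siControl and 10.6, 9.54 and 12.7 in siArp4+CK666 (log2 fold change -3.88, SE 0.50, DESeq2 adjusted p 1.35e-13). The thymidine kinase Tk1 had 1226, 2922 and 1922 in siControl and 184, 204 and 297 in siArp4+CK666 (log2 fold change -3.15, SE 0.33, DESeq2 adjusted p 6.71e-20). Uhrf1, which couples replication to DNA methylation, had 1135, 1051 and 998 in siControl and 112, 153 and 163 in siArp4+CK666 (log2 fold change -2.89, SE 0.19, DESeq2 adjusted p 3.33e-50). The groups were separate, with the siArp4 means of 75.7, 569.7 and 354 between them. The most abundant genes not called, Pcna (-0.81) and Rrm1 (-0.98), passed the adjusted p but not the fold change minimum. Called lower were 9 of 11 genes of origin licensing, 15 of 19 of firing and the fork, and 8 of 11 of nucleotide supply and replication-coupled chromatin. Among cyclins, cyclin-dependent kinases and E2F factors 8 of 13 fell and none rose. Cdk6, the partner of D cyclins, had 613, 323 and 367 in siControl and 45.5, 46.7 and 68.5 in siArp4+CK666 (log2 fold change -3.02, SE 0.39, DESeq2 adjusted p 1.11e-13), E2f8 fell by 3.79 and Ccne2 by 2.15. The most abundant members, Ccnd2 (0.25) and Cdk4 (-0.19), were not called. Among 10 inhibitors of the cycle none rose, and Cdkn2c and Cdkn2d fell by 1.78 and 1.39. Of 25 genes listed as p53 targets 5 were called lower (20.8% of those tested) and none higher. Gadd45a, called higher, was counted in the YAP/TEAD list and not in this one. On the p53 list 4 genes were higher without siControl replicate 1, 1 without siArp4+CK666 replicate 3 and 1 with the length trend removed. By edgeR 3 were lower. The death receptor Fas had 339, 436 and 455 in siControl and 60.3, 74.4 and 72.7 in siArp4+CK666 (log2 fold change -2.57, SE 0.23, DESeq2 adjusted p 2.69e-26), and Btg2 fell by 1.64, while the cycle inhibitor Cdkn1a (p21) had -0.48 (adjusted p 0.0144).

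**Figure D3:**
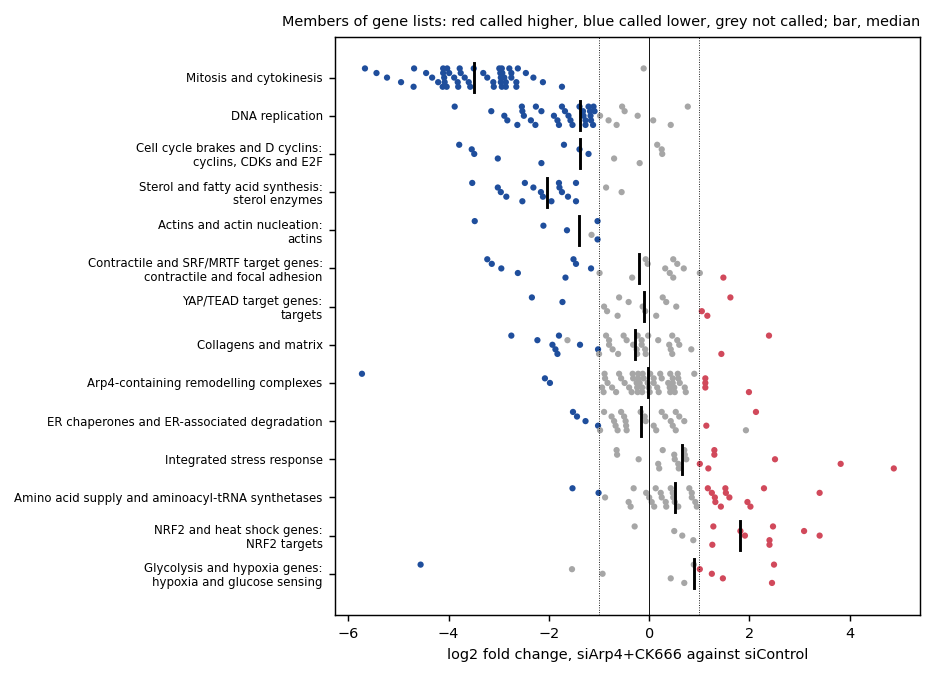
Log2 fold change of siArp4+CK666 against siControl (x axis) for the tested members of 14 gene lists (y axis), red where called higher, blue where called lower and grey where not called, with a bar at the median. Mitosis genes centre on -3.50 and sterol enzymes on -2.04, while NRF2 and its targets centre on 1.82.

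Genes of sterol synthesis fell in nearly every member. Of 18 enzymes and carriers of the pathway from acetyl-CoA to cholesterol 16 were called lower and none higher (median -2.04). Hsd17b7 had a log2 fold change of -0.86 and was not called. Fdps, which makes farnesyl pyrophosphate, had 2921, 7043 and 4719 in siControl and 461, 601 and 746 in siArp4+CK666 (log2 fold change -3.02, SE 0.32, DESeq2 adjusted p 4.04e-19). Msmo1, a demethylating oxidase, had 2859, 5710 and 4203 in siControl and 415, 605 and 626 in siArp4+CK666 (log2 fold change -2.96, SE 0.28, DESeq2 adjusted p 8.7e-24). Cyp51, the lanosterol demethylase, had 5028, 5162 and 5062 in siControl and 642, 737 and 739 in siArp4+CK666 (log2 fold change -2.85, SE 0.12, DESeq2 adjusted p 4.97e-125). The groups were apart in all 3. In siArp4 alone the 3 means were 2169, 1355 and 2669, and 10 of the 18 were called lower in siArp4+CK666 than in siArp4 (all genes, 4.12%). Upstream, the transcription factor Srebf2 (SREBP2) fell from 3961, 4093 and 3694 to 1239, 1159 and 1027 (log2 fold change -1.78, SE 0.13, DESeq2 adjusted p 1.52e-41). Insig1, which retains the SREBP complex in the endoplasmic reticulum, fell by 1.69, while its paralogue Insig2 rose from 996, 814 and 822 to 2454, 2176 and 1767 (log2 fold change 1.28, SE 0.18, DESeq2 adjusted p 1.62e-11). Fatty acid enzymes were mixed, with 3 of 10 lower and 2 higher. Acly, which makes cytosolic acetyl-CoA, rose by 1.54 and Scd2, a desaturase, by 1.46, while Fads1, Fads2 and Elovl5 fell by 2.35, 1.2 and 1.62. Fasn and Scd1 had -0.23 and -0.15. Over the whole list of 35 genes 22 were lower and 3 higher, and 23 and 3 without siControl replicate 2.

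**Figure D4:**
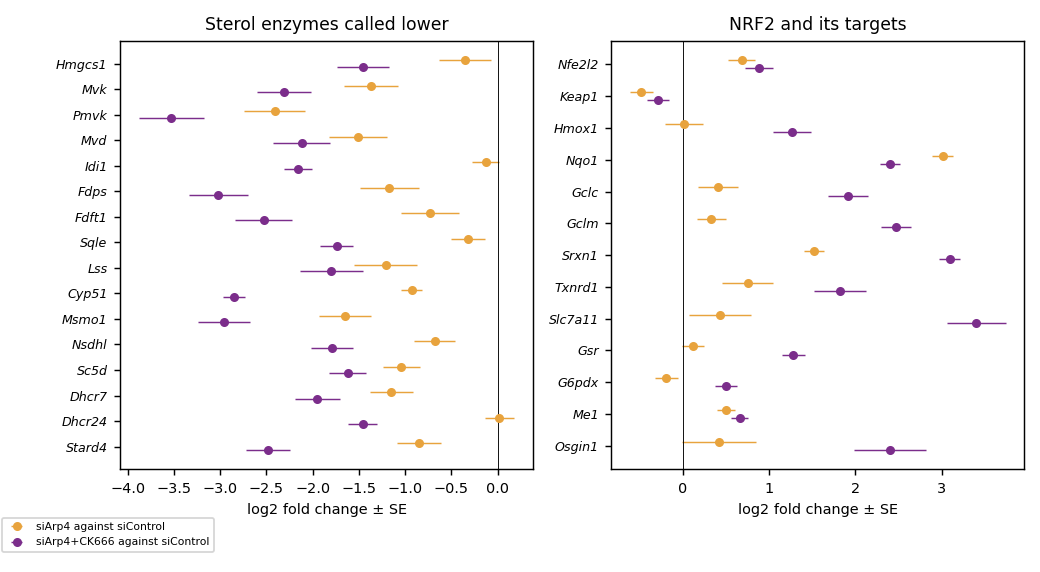
Log2 fold change with its standard error (x axis) for sterol enzymes called lower at left and NRF2 with its targets at right, for siArp4+CK666 (purple) and siArp4 (orange), each against the same siControl libraries. Fdps stands at -3.02 and -1.17, and Gclm at 2.47 and 0.33.

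A sterol regulatory element, the site of SREBP factors, spelled here TCACNCCAC, was found in 1 of 15 windows (6.67%) of list members called lower, against 1.35% of tested genes. It was the promoter of Hmgcs1, which makes HMG-CoA and fell by 1.46 (chr13:119690189-119690247, plus strand).
Hmgcs1: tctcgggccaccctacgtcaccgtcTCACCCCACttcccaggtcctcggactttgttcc
The search took only this spelling.

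Genes of the integrated stress response, in which kinases that slow translation raise ATF4 and its targets, were higher in part. Of 21 genes 7 were called higher (all genes, 8.06%) and none lower, with a median of 0.65, and 9 were higher without siControl replicate 2. Atf3, an early factor of the response, had 20.1, 13.8 and 30.8 in siControl and 606, 646 and 689 in siArp4+CK666 (log2 fold change 4.88, SE 0.27, DESeq2 adjusted p 3.25e-69), with 56.4, 59.4 and 55.1 in siArp4 alone. Trib3, a pseudokinase that feeds back on the pathway, had 42.8, 106 and 75.7 in siControl and 839.6, 1063 and 1230 in siArp4+CK666 (log2 fold change 3.82, SE 0.33, DESeq2 adjusted p 8.96e-29). Chac1, which degrades glutathione, had 37.7, 47.8 and 57.9 in siControl and 241, 258 and 314 in siArp4+CK666 (log2 fold change 2.51, SE 0.28, DESeq2 adjusted p 8.3e-18). No siControl library came within the range of siArp4+CK666 in these genes. Atf5, Vldlr, Eif2ak4 and Stc2 rose by 1.3, 1.3, 1.18 and 1.01. Atf4 itself and Ddit3 had 0.20 (adjusted p 0.548) and 0.58 (0.222) and were not called. Of 38 genes for amino acid supply and charging of tRNA 12 rose (32.4% of those tested, all genes 8.06%) and 2 fell (5.41%, all genes 12.4%). The cystine transporter Slc7a11 had 33.5, 16.4 and 27.1 in siControl and 304, 305 and 217 in siArp4+CK666 (log2 fold change 3.40, SE 0.34, DESeq2 adjusted p 1.7e-22). Its partner chain Slc3a2 had 2439, 5073 and 3364 in siControl and 12181, 14829 and 16953 in siArp4+CK666 (log2 fold change 2.02, SE 0.28, DESeq2 adjusted p 1.02e-11). The neutral amino acid carrier Slc1a4 rose to 1215, 1292 and 1221 from 355, 284 and 319 (log2 fold change 1.96, SE 0.14, DESeq2 adjusted p 3.7e-43). All 3 transport genes were separated, though Slc1a4 was already at 1127 in siArp4 alone. Slc6a9, a glycine carrier, rose by 2.29. The arginine carrier Slc7a1 fell by 1.53, and the synthetase Vars, near the fold change minimum, by 1.01. Among 14 aminoacyl-tRNA synthetases and partners 5 rose, and Nars and Sars, the most abundant list members not called, passed the adjusted p with log2 fold changes of 0.85 and 0.47.

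CARE, the composite element of ATF4 and C/EBP factors, spelled TGATGNAA, was found in 10 of 17 windows of the genes of these lists that were called higher (58.8%), against 2.78% of tested genes and 3.97% of all windows. The windows of Atf3 (chr1:191183411-191183468), Trib3 (chr2:152344029-152344056) and Slc7a11 (chr3:50443628-50443685), all on the minus strand, are shown for the strongest rises. Capitals mark the element, which reads as its reverse complement on the strand printed.
Atf3: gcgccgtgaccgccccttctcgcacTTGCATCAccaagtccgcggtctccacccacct
Trib3: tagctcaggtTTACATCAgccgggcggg
Slc7a11: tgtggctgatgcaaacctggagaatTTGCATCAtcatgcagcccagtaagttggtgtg
The Slc7a11 window holds a second copy, on the other strand, in lower case. As with the CArG box, the share is of called list members only and cannot be tied to the rise.

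Genes of endoplasmic reticulum chaperones and degradation were called at shares near those of all genes. Of 31 genes 2 were called higher (6.45%, all genes 8.06%) and 4 lower (12.9%, all genes 12.4%), with a median of -0.17. The lower count was 2 without siControl replicate 2, 2 without siArp4+CK666 replicate 1 and 1 by edgeR. Ero1l, an oxidase for disulfide bonds, rose from 3377, 1729 and 2594 to 12922, 11064 and 9650 (log2 fold change 2.13, SE 0.26, DESeq2 adjusted p 4.15e-15), and Dnajb9 rose by 1.14. The lectin chaperone Canx fell from 11863, 7140 and 8674 to 4389, 3925 and 3132 (log2 fold change -1.27, SE 0.24, DESeq2 adjusted p 7.85e-07). The groups were separate in Ero1l and Canx. Sdf2l1, Manf and Selenos fell by 1.52, 1.44 and 1.02, calls that 1, 3 and 8 alternatives lost.

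Targets of NRF2, the factor that answers oxidants and electrophiles, rose together. Of 13 genes, counting NRF2 (Nfe2l2) and its inhibitor Keap1, 9 were called higher and none lower (median 1.82), and 8 of the 13 were also higher than in siArp4 alone (all genes, 1.63%). Srxn1, which repairs peroxiredoxins, had 1589, 1352 and 1411 in siControl and 12104, 12767 and 12310 in siArp4+CK666 (log2 fold change 3.09, SE 0.12, DESeq2 adjusted p 2.43e-154). Gclm, a subunit of the first enzyme of glutathione synthesis, had 729, 641 and 892 in siControl and 3912, 4310 and 4367 in siArp4+CK666 (log2 fold change 2.47, SE 0.17, DESeq2 adjusted p 1.75e-48), and the other subunit, Gclc, rose by 1.91. The groups were narrow and far apart in both. Nqo1, a quinone reductase, had 442, 410.0 and 489 in siControl and 2343, 2380 and 2368 in siArp4+CK666 (log2 fold change 2.40, SE 0.12, DESeq2 adjusted p 4.83e-85), and siArp4 alone stood at 3631, 3529 and 3661. The metallothionein Mt2, a metal-binding protein, had 506, 1457 and 872 in siControl and 4454, 5214 and 7072 in siArp4+CK666 (log2 fold change 2.56, SE 0.36, DESeq2 adjusted p 1.84e-11), while its abundant neighbour Mt1 was spread from 4650 to 21994 in siControl and was not called (0.45, adjusted p 0.496). Of 12 heat shock genes 1 was higher (Hsph1, 1.63) and 1 lower (Hspb1, -2.20). Hspa8, the most abundant of them, had a log2 fold change of -0.47.

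The antioxidant response element, spelled TGACNNNGC, was found in 5 of 8 windows of list members called higher (62.5%), against 16.9% of tested genes and 12.4% of all windows. These letters can overlap those of an AP-1 site, TGACTCA, as they do in the window of Mt2. The windows of Srxn1 (chr2:152105542-152105570), Mt2 (chr8:94172514-94172572) and Gclm (chr3:122245398-122245456), all on the plus strand, carry the largest rises among them.
Srxn1: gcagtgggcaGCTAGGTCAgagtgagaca
Mt2: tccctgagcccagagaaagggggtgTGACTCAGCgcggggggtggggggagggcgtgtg
Gclm: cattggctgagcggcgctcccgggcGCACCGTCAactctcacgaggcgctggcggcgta
Capitals mark the match, which is the reverse complement in Srxn1 and Gclm. Here too the share is of called list members only and cannot be tied to the rise.

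**Figure D5:**
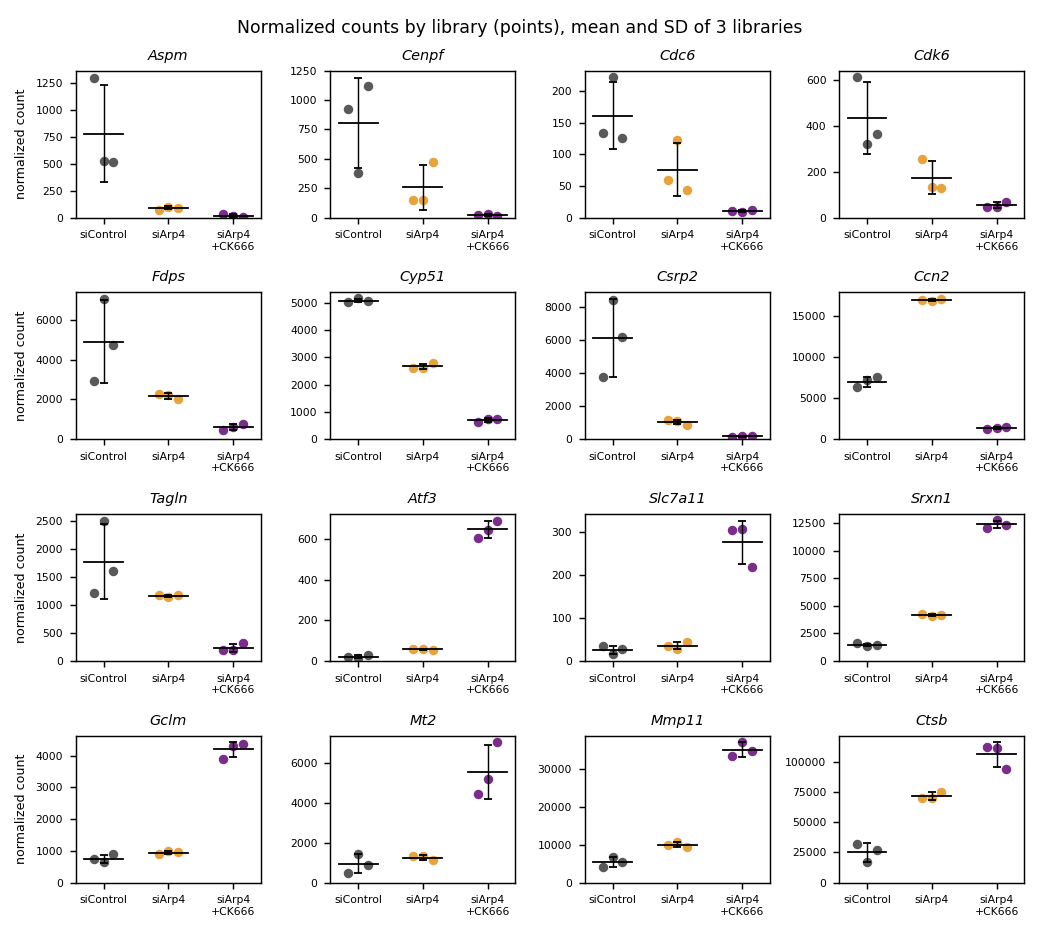
Normalized counts (y axis, from 0) of 16 genes in the 3 siControl, 3 siArp4 and 3 siArp4+CK666 libraries, each point a library, with the mean and SD. In genes of division, sterol synthesis and contraction the siArp4+CK666 points are the lowest, and in Atf3, Slc7a11, Srxn1, Gclm, Mt2, Mmp11 and Ctsb they are the highest.

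Genes of the fat and bone lineages were called in few members and in both directions. Of 37 adipogenic regulators and adipocyte genes 5 were higher (15.6% of those tested, all genes 8.06%) and 2 lower (6.25%, all genes 12.4%), with a median of 0.35. The counts were 6 and 2 without siControl replicate 2, and 4 and 1 by edgeR. Of the 5 rises 2 were among 17 regulators (12.5% of those tested) and 3 among 15 genes of lipid storage and release (21.4%), and 1 gene of each was lower. The master regulators Pparg and Cebpa had 0.11 (DESeq2 adjusted p 0.623) and -0.23 (0.516). Plin2, which coats lipid droplets, had 7258, 9629 and 8155 in siControl and 17225, 18077 and 19526 in siArp4+CK666 (log2 fold change 1.13, SE 0.15, DESeq2 adjusted p 2.42e-12). Cd36, a fatty acid transporter, had 45.3, 21.4 and 27.1 in siControl and 146, 107 and 91.7 in siArp4+CK666 (log2 fold change 1.86, SE 0.43, DESeq2 adjusted p 8.73e-05). Cd36 lay above siControl here and below it in siArp4 alone, at 2.53, 2.16 and 7.01. Lpl, the lipase of the cell surface and the most abundant member not called, had 62076, 75281 and 62143 in siControl and 56310, 58925 and 56406 in siArp4+CK666, and stood at 13131, 14367 and 14607 in siArp4 (-0.22 against siControl, 2.03 against siArp4). The triglyceride lipase Pnpla2 rose by 1.01 and was lost in 2 alternatives. Agpat2, an acyltransferase of triglyceride synthesis, fell from 484, 465 and 711 to 56.0, 51.5 and 49.5 (log2 fold change -3.40, SE 0.26, DESeq2 adjusted p 5.24e-36). Of 24 osteoblast genes 3 were higher and 2 lower, with a median of 0.16, and 4 and 1 without siControl replicate 2. Rgs2, a G-protein regulator on this list, had 494, 475 and 462 in siControl and 1804, 2095 and 1955 in siArp4+CK666 (log2 fold change 2.03, SE 0.16, DESeq2 adjusted p 4.34e-33), and Phospho1 and Phex, which act in mineralisation, rose by 1.17 and 1.91. Enpp1, which makes the mineral inhibitor pyrophosphate, fell by 1.06, and Bmp4, at 8.59 to 44.0 counts, by 1.91. The matrix genes Spp1 and Sparc, among the most abundant of all, had 0.67 and 0.18 and were not called.

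Matrix genes shifted by member. Of 39 collagens and matrix proteins 2 were called higher (5.56% of those tested, all genes 8.06%) and 8 lower (22.2%, all genes 12.4%), with a median of -0.28. The fibril collagen Col5a3 had 433, 357 and 385 in siControl and 2199, 2162 and 1800 in siArp4+CK666 (log2 fold change 2.39, SE 0.16, DESeq2 adjusted p 1.72e-46). Col12a1, which decorates fibrils, had 2913, 4030 and 4084 in siControl and 493, 577 and 572 in siArp4+CK666 (log2 fold change -2.75, SE 0.19, DESeq2 adjusted p 2.31e-46). Both were separate between groups, in opposite directions. Col16a1, Loxl3 and Loxl4 fell by 1.93, 1.87 and 2.23, and Dcn, at 22.6 to 81.4 counts, rose by 1.44, though siArp4 alone stood at 415. Thbs2 and Sparc were not called (0.56 and 0.18). Proteases were divided, with 3 of 18 higher and 5 lower. The stromelysin Mmp11 had 4178, 6808 and 5301 in siControl and 33416, 37149 and 34785 in siArp4+CK666 (log2 fold change 2.69, SE 0.20, DESeq2 adjusted p 1.03e-38). The collagenase Mmp13 rose from 164, 107 and 142 to 748, 803 and 629 (log2 fold change 2.39, SE 0.21, DESeq2 adjusted p 2.25e-28), and Mmp19 rose by 1.15. Adamts1, which cleaves proteoglycans, fell from 2589, 1346 and 1657 to 346, 338 and 186 (log2 fold change -2.69, SE 0.33, DESeq2 adjusted p 3.65e-15). Plau (urokinase) fell by 1.98, Mmp23 by 1.36, Mmp2 by 1.31 and Adamts12 by 1.53, the last call being lost in 4 alternatives. The metalloproteinase inhibitor Timp3 rose by 2.30.

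Intermediate filament genes were called lower or not at all. Of 16 genes 7 were called lower and none higher, with a median of -1.90. Vim (vimentin), among the most abundant genes of these cells, had 68592, 105007 and 98438 in siControl and 19492, 22769 and 30635 in siArp4+CK666 (log2 fold change -1.90, SE 0.24, DESeq2 adjusted p 4.54e-14). Des (desmin) had 460.2, 848 and 705 in siControl and 56.0, 69.6 and 39.0 in siArp4+CK666 (log2 fold change -3.61, SE 0.39, DESeq2 adjusted p 8.58e-19). Krt19 fell by 5.61 and Krt80 by 3.88. None of the 4 overlapped between groups. Of 24 genes of the nuclear envelope and heterochromatin 2 were higher (8.33%, all genes 8.06%) and 4 lower (16.7%, all genes 12.4%). Without siControl replicate 2 none was higher and 6 were lower. At the envelope 3 of 13 genes fell and 1 rose. Lmnb1 (lamin B1), Emd (emerin) and Sun2, which joins the lamina to the cytoskeleton, fell by 1.46, 2.03 and 1.79, while Lmna was not called (-0.68, adjusted p 0.043). Sun2 had 4184, 4161 and 3878 in siControl and 1165, 1220 and 1148 in siArp4+CK666. The nesprin Syne2 rose by 1.09. Of 11 genes of H3K9 methylation and HP1 the methyltransferase Suv39h1 fell by 1.11 and Setdb1 rose by 1.06. In Polycomb repressive complex 2, 1 of 11 rose (Jarid2, 1.04) and 1 fell (Phf1, -2.25). Each is 9.09% of the list, beside 8.06% higher and 12.4% lower over all genes.

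Immune and early response genes were called in both directions. Of 34 interferon-stimulated and antigen presentation genes 2 were higher (6.45% of those tested, all genes 8.06%) and 6 lower (19.4%, all genes 12.4%), with 3 lower by edgeR and 3 without siArp4+CK666 replicate 2. Among 12 antigen presentation genes 4 fell and 1 rose. The immunoproteasome subunit Psmb8 had 836, 2115 and 1309 in siControl and 105, 133 and 136 in siArp4+CK666 (log2 fold change -3.51, SE 0.37, DESeq2 adjusted p 3.37e-20). The peptide transporter Tap1 had 1225, 1859 and 1319 in siControl and 147, 177 and 277 in siArp4+CK666 (log2 fold change -2.87, SE 0.30, DESeq2 adjusted p 4.57e-20). Both were as low or lower in siArp4 alone, at means of 84.0 and 142, and B2m, the light chain of the presented complex, was not called (0.33). Of 17 antiviral genes Isg15 rose by 1.38 and Ifit2 fell by 1.46, and the interferon regulatory factor Irf7 fell by 3.72. Among 12 chemokines 5 fell and 2 rose. Their summed level was 57829 to 75313 in siControl, 15178 to 16072 in siArp4 alone and 18624 to 20566 in siArp4+CK666. Most of this sum was Cxcl12 in the 2 groups compared. Against siArp4 3 of the 12 were called lower and none higher. Cxcl12, which holds blood progenitors in the marrow, had 71998, 54587 and 69332 in siControl and 18081, 19772 and 18406 in siArp4+CK666 (log2 fold change -1.80, SE 0.15, DESeq2 adjusted p 2.32e-31). The monocyte attractant Ccl2 fell too (log2 fold change -4.36, SE 0.33, DESeq2 adjusted p 1.8e-37). In both the groups were separate, and Ccl7 and Ccl9 fell by 2.03 and 3.76, while Cxcl1 rose by 1.03 and Ccl8, at 0 to 19.0 counts, by 3.39. Of 17 immediate early factors 4 rose (23.5%) and 5 fell (29.4%), and edgeR called 2 higher. Egr1 had 2620, 3227 and 2628 in siControl and 421, 533 and 473 in siArp4+CK666 (log2 fold change -2.57, SE 0.16, DESeq2 adjusted p 6.66e-53), Egr2 fell by 2.97, Egr3 by 2.02, Ier2 by 2.59 and Nr4a1 by 1.18. Myc rose from 339, 445 and 420.3 to 1097, 1427 and 1442 (log2 fold change 1.72, SE 0.19, DESeq2 adjusted p 4.94e-19). The AP-1 subunit Fosl1 rose from 692, 78.0 and 576, an uneven control, to 2476, 2669 and 2224 (log2 fold change 2.45, SE 0.56, DESeq2 adjusted p 6.5e-05).

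Metabolic genes outside the sterol pathway were called in few members, apart from those of hypoxia and glucose sensing. Of 14 glycolytic genes 2 rose, Hk2 by 1.35 and Pfkl by 1.24, and Gapdh and Pkm had -0.29 and 0.03. Of 11 genes of hypoxia and glucose sensing 5 rose (45.5%, all genes 8.06%) and 1 fell (9.09%, all genes 12.4%), with a median of 0.89. In siArp4 alone 6 were called higher than in siControl and 1 lower (median 1.21). Against siArp4 none was called higher and 1 lower (median -0.30). The hormone Adm had 85.5, 123 and 86.9 in siControl and 495, 519.9 and 587 in siArp4+CK666 (log2 fold change 2.45, SE 0.21, DESeq2 adjusted p 4.72e-30). The prolyl hydroxylase Egln3, which marks HIF proteins for degradation, had 102, 78.0 and 114 in siControl and 586, 510.3 and 570.1 in siArp4+CK666 (log2 fold change 2.49, SE 0.19, DESeq2 adjusted p 2.02e-36). Txnip, a thioredoxin-binding protein that follows glucose, had 4993, 20808 and 7927 in siControl and 407, 463 and 562 in siArp4+CK666 (log2 fold change -4.56, SE 0.44, DESeq2 adjusted p 4.95e-23). The groups were separate in these, with siControl replicate 2 the highest for Txnip. In ribosome biogenesis 1 of 16 genes rose, Rrp9 (1.08, lost in 9 alternatives), and Ncl and Npm1 were not called. Of 27 lysosome and autophagy genes 4 rose (14.8%, all genes 8.06%) and 2 fell (7.41%, all genes 12.4%), and 3 and 1 without siControl replicate 2. The protease Ctsb (cathepsin B) had 32279, 16672 and 27045 in siControl and 113002, 112211 and 94203 in siArp4+CK666 (log2 fold change 2.07, SE 0.25, DESeq2 adjusted p 2.01e-15). Atg12, a conjugation protein of autophagosomes, had 863, 630.0 and 781 in siControl and 3710, 3665 and 3167 in siArp4+CK666 (log2 fold change 2.21, SE 0.17, DESeq2 adjusted p 9.24e-39). Npc1 rose by 1.06 and Gpnmb by 1.05, and Ctsk fell by 1.17. With the length trend removed 3 were higher and none lower.

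The signalling lists held calls in both directions or none. Of 30 TGF-beta and BMP genes 2 rose (8.33% of those tested, all genes 8.06%) and 4 fell (16.7%, all genes 12.4%), with a median of 0.09, and 1 and 3 without siControl replicate 2. Tgfb1 and Tgfb2 moved apart, Tgfb1 from 1442, 3215 and 2028 to 625, 709.7 and 818 (log2 fold change -1.63, SE 0.29, DESeq2 adjusted p 1.94e-07) and Tgfb2 from 1236, 638 and 949 to 2452, 2066 and 1813 (log2 fold change 1.16, SE 0.26, DESeq2 adjusted p 4.33e-05). The antagonists Fstl1 and Chrd fell by 1.55 and 1.18, and the procollagen protease Bmp1 rose by 1.01. Of 30 Wnt genes 3 rose (12.5%) and 4 fell (16.7%), and 6 were higher without siControl replicate 1. Nkd2, an intracellular brake, and the factor Lef1 rose by 2.37 and 1.32 and the secreted Sfrp2 by 1.24, while the secreted antagonists Sfrp1 and Dkk3 fell by 1.65 and 1.72 and the receptors Ror2 and Lgr6 by 1.88 and 1.14. Of 22 semaphorin genes 6 rose (30.0% of those tested, all genes 8.06%) and 1 fell (5.0%, all genes 12.4%). Without siControl replicate 2 the counts were 4 and 1, but the 1 lower was then a different gene. The call of the ligand that fell in the main comparison was lost in 12 alternatives, and edgeR called 4 higher and none lower. The ligand Sema7a had 1813, 1675 and 1857 in siControl and 4990, 5344 and 4668 in siArp4+CK666 (log2 fold change 1.49, SE 0.11, DESeq2 adjusted p 1.78e-36). The receptors Plxnd1 and Nrp2 rose by 1.62 and 1.48. Of 13 genes of the insulin-like growth factor axis none was called in either direction, but 4 were called higher without siControl replicate 1 and 2 without siArp4+CK666 replicate 3. In 2 of the 13 no library held a count. The most abundant, Igf2r and Igfbp7, had 1.05 (adjusted p 0.015) and 0.02. Igf2r was called without siControl replicate 1 (1.55, DESeq2 adjusted p 1.74e-07), without siArp4+CK666 replicate 3 (1.24, 0.00845), with a replicate block (1.1, 0.00309) and with all 18 libraries (1.06, 0.00401).

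The label of the cells was set against markers. Of 17 marrow stromal markers 15 had enough counts for a test, 1 was called higher and 4 lower, and 2 and 6 without siControl replicate 2. Col1a2 had 100487, 62398 and 84524 in siControl and 73372, 72279 and 62833 in siArp4+CK666 and Col1a1 32801, 17579 and 27614 in siControl and 36193, 35225 and 31427 in siArp4+CK666, with overlapping groups and log2 fold changes of -0.25 and 0.40. Against the label, Thy1 was at 0 in all libraries, Nt5e had a mean of 1.48 counts, and Eng fell from 35.2, 75.5 and 50.4 to 5.29, 6.68 and 15.8 (log2 fold change -2.53, SE 0.54, DESeq2 adjusted p 1.6e-05). Cd44 and Ly6a fell by 1.68 and 2.69 and Twist1 rose by 1.06. The summed level of the 10 macrophage markers was 166 to 391 in siControl and 150.1 to 388 in siArp4+CK666, with Ptprc at 0 in 5 of the 6 libraries, and 0 of 10 were called. Of the 7 endothelial markers Cdh5, Emcn and Tie1 were at 0 and Kdr rose from 1.68, 5.03 and 4.67 to 21.2, 23.9 and 25.3 (log2 fold change 2.67, SE 0.68, DESeq2 adjusted p 0.000396). Among 10 other blood markers Itga2b fell by 1.97, and of 5 epithelial markers none had enough counts for a test. The part of other cell types in the results was not tested.

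Other large changes lay outside the lists above. Csrp2, a LIM-domain protein of actin-rich cells, had 3743, 8442 and 6162 in siControl and 139, 174 and 194 in siArp4+CK666 (log2 fold change -5.18, SE 0.31, DESeq2 adjusted p 5.96e-60), a 36.3-fold difference of means, with a siArp4 mean of 1044. The annexin Anxa8 had 299, 258 and 333 in siControl and 10.6, 5.72 and 9.48 in siArp4+CK666 (log2 fold change -5.12, SE 0.37, DESeq2 adjusted p 1.87e-42). Sapcd2 fell by 5.43, and the long noncoding RNA Lockd and the secreted C1qtnf12 had log2 fold changes of -5.23 and -5.25. For siArp4 against siControl Sapcd2, Lockd and C1qtnf12 had -3.65, -3.42 and -4.59, and none of them was called between siArp4+CK666 and siArp4. On the higher side Nkain1, a partner of the sodium pump, had 215, 108 and 137 in siControl and 3228, 3345 and 3350 in siArp4+CK666 (log2 fold change 4.42, SE 0.24, DESeq2 adjusted p 1.24e-71). The serotonin receptor Htr7 had 21.0, 8.80 and 14.0 in siControl and 309, 280.4 and 245 in siArp4+CK666 (log2 fold change 4.20, SE 0.33, DESeq2 adjusted p 1.52e-35). Whrn (whirlin, a scaffold of stereocilia) had 29.3, 42.8 and 33.6 in siControl and 588, 479.8 and 559 in siArp4+CK666 (log2 fold change 3.96, SE 0.23, DESeq2 adjusted p 1.08e-62). The means of siArp4 alone stood between for these 3 genes, at 2527, 132 and 286. Map7d2, Nhsl1, Slc4a4, Ppme1 and Gfra1 rose by 3.84, 3.71, 3.58, 3.44 and 3.44. Map7d2 was also called higher than siArp4 (1.13), while Nhsl1, Slc4a4, Ppme1 and Gfra1 were not called against siArp4. The mean of Ppme1 was 2066 in siArp4 alone and 1651 in siArp4+CK666. Arhgap44, a GTPase-activating protein, had 57.8, 41.5 and 65.4 in siControl and 625, 538 and 612 in siArp4+CK666 (log2 fold change 3.41, SE 0.21, DESeq2 adjusted p 1.7e-55) and was also called higher than siArp4 (1.92). Sema3c, of the semaphorin list, rose by 3.42 but stood lower than in siArp4 alone (-1.33).

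Against siArp4 alone 811 of 14098 tested genes were called in siArp4+CK666 (5.75%), 230 higher (1.63%) and 581 lower (4.12%), and siArp4 against siControl called 2494 of 15415 (16.2%), 1031 higher (6.69%) and 1463 lower (9.49%). These comparisons share libraries with the main one. The lists with the most members called between siArp4+CK666 and siArp4 were mitosis (42 lower), collagens and matrix (15 lower), DNA replication (12 lower, 1 higher), sterol and fatty acid synthesis (12 lower) and NRF2 with heat shock genes (9 higher, 3 lower).

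Counts of further lists changed by 1 gene without siControl replicate 2. Contractile and SRF/MRTF genes then held 7 lower in place of 8, cell cycle brakes and cyclins 9 in place of 10, and interferon-stimulated and antigen presentation genes 5 in place of 6. The amino acid list held 1 lower in place of 2, NRF2 with heat shock genes 12 higher in place of 11, and matrix proteases with inhibitors 4 higher in place of 5. Polycomb repressive complex 2 held none higher and other blood markers none lower. Without siControl replicate 1 the complexes of Arp4 held 7 higher and 5 lower, collagens and matrix 4 higher, glycolysis and hypoxia genes 3 lower, and lysosome and autophagy genes 4 lower. Stromal cytokines and complement, with 3 of 32 higher, held 1 higher without siControl replicate 3, without siArp4+CK666 replicate 2 or 3, by edgeR, and with only the 6 libraries compared. Without siArp4+CK666 replicate 1 the YAP/TEAD list held 2 higher. Without replicate 2 of that group the p53 list held 3 lower and the Wnt list 5 higher, and without replicate 3 the p53 list held 3 lower, as it did with only the 6 libraries. With edgeR the actin list held 2 higher and the contractile list 5 lower. With the length trend removed the complexes of Arp4 held 2 higher and the list of nuclear envelope and heterochromatin none higher.

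Of the genes named as called above, the following were no longer called without siControl replicate 2, with their log2 fold changes there: Actb (-0.57), Actg1 (-0.82), Actr3 (0.82), Arid1b (0.99), Bcl7a (0.93), Bmp4 (-1.80), Gpnmb (0.86), Itga2b (-1.42), Jarid2 (0.93), Manf (-0.93), Mmp19 (0.89), Npc1 (0.97), Selenos (-0.70), Setdb1 (0.99), Syne2 (0.95), Tgfb2 (0.95) and Vars (-0.75). With the length trend removed the calls of Actb (-0.83), Actg1 (-0.85), Arid1b (0.81), Bcl7a (0.89), Bmp1 (0.76), Ctsk (-0.86), Gpnmb (0.94), Jarid2 (0.76), Npc1 (0.76), Selenos (-0.61), Setdb1 (0.92), Stc2 (0.97) and Syne2 (0.65) were lost. Where a number of alternatives was said to have lost a call, the test against a log2 fold change of 1 is left out of that number. The libraries carried no strand, so that reads of genes that overlap on opposite strands cannot be told apart. This holds for Actl6a with Mrpl47, Agpat2 with Egfl7, Arhgap44 with Elac2, Arpc1b with Pdap1, Atf5 with Nup62, Ccne2 with Ints8, Cdk4 with Tspan31, Cyp51 with Akap9, Ddit3 with Mars, Eng with Fpgs, Fosl1 with Ccdc85b, Igfbp7 with Polr2b, Irf7 with Phrf1, Loxl3 with Htra2, Manf with Dcaf1, Mmp19 with Tmem198b, Npc1 with Rmc1, Nusap1 with Oip5, Phf1 with Cuta, Ppme1 with C2cd3, Rrp9 with Parp3, Setdb1 with Cers2, Slc6a9 with B4galt2 and Ccdc24, Tagln with Pcsk7, Tap1 with Psmb9 and Tk1 with Afmid, and for E2f8 and Krt80, which predicted genes overlap. Most genes were named by a rule of size and level, and Actb, Actg1, Arpc1a, Arpc1b, Atf4, Atf5, Cdkn1a, Cdkn2c, Cdkn2d, Cebpa, Ddit3, Diaph1, Eif2ak4, Elovl5, Fads1, Fads2, Fhl1, Gclc, Hmgcs1, Hsd17b7, Hsph1, Ifit2, Insig1, Kif18b, Nqo1, Pfkl, Pfn1, Pparg, Srebf2 and Stc2 were named after their values were seen.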

How the data were processed

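RNA was extracted with the RNeasy plus mini kit, and paired-end libraries without strand information were sequenced. The authors quantified transcripts with Salmon 1.2.1 against the GENCODE vM25 annotation of the mouse genome (mm10, GRCm38) and deposited estimated counts per gene. The sources used here do not say how transcripts were summed to genes. All 18 columns were matched to libraries by their names. Estimated counts were rounded to whole numbers, and 54094 of 54347 gene IDs were matched to positions in the reference.

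DESeq2 1.42.0 in R 4.3.3 was fitted with the group as the only term over the 9 libraries of the transfected cells, with Wald tests, Benjamini-Hochberg adjustment and no shrinkage. These 9 libraries shared an estimate of spread for each gene, and the siArp4 libraries lay 17.0 to 20.0 apart on the distance scale above. With only the 6 libraries compared 2743 genes were called, 1064 higher and 1679 lower. Genes with an adjusted p below 0.01 and an absolute log2 fold change over 1 were called. Levels are counts divided by size factors. The libraries held 18848954 to 21821871 counts in the compared groups, and a count of 0 allows up to 3 counts, for counting error only.

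The compared libraries and the 35 gene lists were chosen with earlier results of these data known. Genes were named by rule: Actl6a and its paralogue, the 12 largest rises and falls among called genes with a mean of at least 100, separate groups and a descriptive symbol, and for each list up to 4 called members per direction with a mean of at least 50, all members of a direction with up to 5 calls, and the 2 most abundant members not called. Some genes that this rule takes are not reported here. Promoter windows came from RefSeq (GRCm38.p6) and matched 687 of 903 list genes by symbol. Alternatives used edgeR 4.0.16, other size factors, filters, library sets and fold change rules. Each library was also left out in turn, and removal of the length trend was added after the data had been seen.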

Additional observations from a re-analysis of the deposited data

How the results depend on the processing

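The count of genes called in siArp4+CK666 against siControl stayed within 1.5 times 3150 under TMM size factors, a filter on low counts, edgeR, other sets of libraries and removal of the length trend. Tested against a log2 fold change of 1 in place of 0, 792 genes passed (234 higher and 558 lower), 145 passed against siArp4, and 431 for siArp4 against siControl. With no fold change minimum 4602 genes differed from siControl, 2159 higher and 2443 lower. The counts under this rule were 1395 against siArp4 and 3867 for siArp4 against siControl. With edgeR 466 differed from siArp4, where DESeq2 called 811. These rules are stricter or looser by construction, except for edgeR, for which the cause was not tested.

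Leaving out 1 library at a time gave 2618 to 4019 called genes (1011 to 1752 higher and 1583 to 2267 lower), 575 to 926 against siArp4 and 1968 to 3198 for siArp4 against siControl. Of 207 called genes named by the rule or outside it, 154 kept their call in every alternative but the test against 1, which 105 failed, and none changed sign. Calls lost, each with its log2 fold change there, were these among genes in the text. Without siControl replicate 1 they were Adamts12 (-0.83), Ccl8 (2.72), Cxcl1 (0.92), Enpp1 (-0.77), Ifit2 (-0.92), Lgr6 (-0.91), Pnpla2 (0.82), Rrp9 (0.80) and Twist1 (0.98). Without siControl replicate 3 they were Actb (-1.13), Arid1b (0.99), Bmp1 (0.97), Ccl8 (3.72), Dpf1 (-1.76), Hk2 (1.28), Nr4a1 (-1.1), Rrp9 (1.05), Selenos (-1.05), Setdb1 (0.96) and Stc2 (0.97). Without siArp4+CK666 replicate 1 they were Actb (-0.91), Actg1 (-0.94), Arid1b (0.85), Bmp1 (1.0), Dpf1 (-1.79), Fhl1 (-1.16), Gpnmb (0.99), Itga2b (-1.65), Jarid2 (0.88), Manf (-1.3), Selenos (-0.90), Setdb1 (0.91) and Stc2 (0.95). Without replicate 2 of that group they were Actb (-1.03), Actr3 (0.99), Adamts12 (-1.54), Bmp4 (-1.79), Ccl8 (3.22), Ifit2 (-1.43), Itga2b (-1.80), Lgr6 (-0.88), Nr4a1 (-1.14), Rrp9 (1.04), Selenos (-0.96) and Vars (-0.98). Without replicate 3 of that group they were Adamts12 (-1.34), Ccl8 (3.12), Cxcl1 (0.92), Enpp1 (-0.93), Hk2 (1.1), Ifit2 (-1.33), Lgr6 (-1.12), Pnpla2 (0.93), Rrp9 (0.91), Twist1 (0.94) and Vars (-0.97). With edgeR they were Actb (-1.04), Actr3 (1.0), Adamts12 (-1.55), Arid1b (1.11), Bmp4 (-1.91), Ccl8 (3.27), Fhl1 (-1.47), Fmnl2 (1.55), Fosl1 (2.43), Hk2 (1.35), Hspb1 (-2.20), Ifit2 (-1.47), Itga2b (-1.97), Lgr6 (-1.16), Manf (-1.44), Pfn1 (-1.90), Rrp9 (1.07), Sdf2l1 (-1.53), Selenos (-1.03) and Stc2 (1.0). With only the 6 libraries compared they were Actb (-1.02), Ccl8 (3.38), Fhl1 (-1.45), Lgr6 (-1.14), Rrp9 (1.09) and Selenos (-1.01), and with a replicate block Actb (-0.96), Selenos (-0.98) and Vars (-0.99). Calls lost without siControl replicate 2 or the length trend were given above. Actb and Rrp9 were also lost without any 1 of the siArp4 libraries.

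Whether the replicate numbers of siControl and siArp4+CK666 pair the libraries was not settled (correlations of same-numbered deviations 0.74, -0.116 and 0.162). The deviations are from means of 3 libraries and can carry the length trend, so they cannot decide it. With a replicate block 3091 genes were called, 769 against siArp4 and 2390 for siArp4 against siControl. Not every library correlated best with its own number.

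A list with 1 to 5 called genes rests on single genes, and 3 libraries per group cannot separate uneven library preparation from variation between cultures.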
